A study of Mus musculus with 6 samples.

Results

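The transcription factor p53 and 9 of its direct target genes were followed in mesenchymal stem cells of mouse bone marrow that lacked or carried glutaredoxin 2, a mainly mitochondrial thiol-disulfide oxidoreductase encoded by Glrx2. The genes are Trp53, which encodes p53, and Mdm2, Ccng1, Perp, Rprm, Zmat3, Phlda3, Sesn1, Btg2 and Aen. They were picked by symbol as known members of the pathway, 10 of the 22984 genes in the deposited table. There were 3 Grx2-/- libraries and 3 Grx2+/+ libraries, and the labels give the genotype and the cell type, with no strain, sex, age, passage or treatment for either group. The submitters call the cells O-BMSCs and do not expand the prefix. The labels do not say that replicates were separate animals or cultures, so each p-value reflects just the spread among these libraries, which may be technical.

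p53 is held at low protein levels in unstressed cells because Mdm2, itself a p53 target, marks it for degradation. After DNA damage, oxidative stress or ribosomal stress the protein is stabilised and binds response elements, each built of a pair of decamers, near genes that halt the cell cycle, promote death or repair, or restrain growth signalling. In bone-forming mesenchymal cells p53 is known to restrain osteoblast differentiation. Since p53 is controlled largely as a protein, the transcript levels given here do not measure its activity.

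RefSeq promoter windows of GRCm38.p6, each from 250 bases before to 50 bases after an annotated start, were found for 8 of the 10 genes by symbol. The p53 decamer, searched by that name's consensus, which reads the same on both strands, was present in 5 of these 8 genes. By window it was in 6 of 10, against 6.92% of the 11349 windows of tested genes and 8.36% of all 32851 windows. These 6 include the 2 overlapping windows of Aen, which share a decamer. The genes were picked as p53 and its known targets, so a higher share may follow from that choice. Of 33 other p53 target genes with a window, 9 held it. The decamers were GGACTTGCCC in Trp53, GAACTTGCCT in Mdm2, GGGCAAGCCT in Ccng1, AAGCTTGTTT in Sesn1 and GGGCTTGTCC in Aen. None was found in the windows of Rprm, Phlda3 and Btg2, which says only that these letters are not in those stretches. A match is a description of sequence and not a shown binding site, and elements in introns, such as those known in Mdm2, lie outside the windows. Windows are printed for 3 genes that differ in direction, Sesn1 and Aen, which were higher in Grx2-/- libraries, and Ccng1, which was lower. Capitals mark the decamer. The Sesn1 window is the second of 2 and lies at chr10:41887189-41887488 on the plus strand. The Aen window, the second of 2 overlapping ones that hold the same decamer, lies at chr7:78895808-78896107 on the plus strand. For Ccng1 the window lies at chr11:40755237-40755536 on the minus strand. The decamer starts 173, 121 and 185 bases before the start of Sesn1, Aen and Ccng1, in that order.
Sesn1: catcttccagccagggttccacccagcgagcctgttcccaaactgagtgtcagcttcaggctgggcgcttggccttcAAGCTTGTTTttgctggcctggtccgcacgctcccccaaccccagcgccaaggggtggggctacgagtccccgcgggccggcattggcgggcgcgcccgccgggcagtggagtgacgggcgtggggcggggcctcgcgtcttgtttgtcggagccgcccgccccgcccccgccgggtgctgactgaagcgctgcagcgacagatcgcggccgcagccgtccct
Aen: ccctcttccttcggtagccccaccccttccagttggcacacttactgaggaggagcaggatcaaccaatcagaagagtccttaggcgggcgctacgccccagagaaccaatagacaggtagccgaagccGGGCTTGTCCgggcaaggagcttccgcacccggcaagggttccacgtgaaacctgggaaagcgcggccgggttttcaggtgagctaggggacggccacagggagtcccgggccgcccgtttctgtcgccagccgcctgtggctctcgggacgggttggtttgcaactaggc
Ccng1: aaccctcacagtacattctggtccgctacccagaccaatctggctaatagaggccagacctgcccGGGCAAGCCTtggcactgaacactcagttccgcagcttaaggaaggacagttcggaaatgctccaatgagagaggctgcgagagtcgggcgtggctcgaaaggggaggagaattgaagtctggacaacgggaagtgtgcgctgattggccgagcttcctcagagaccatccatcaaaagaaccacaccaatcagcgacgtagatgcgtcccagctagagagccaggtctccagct

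Depth, worked back from the values as whole reads, was 40797879 to 41794919 reads per library. Glrx2 had 1, 0 and 0 reads in Grx2-/- replicates 1 to 3 and 756, 800 and 761 reads in Grx2+/+ replicates 1 to 3, the direction that the labels give. All 10 stromal markers passed the test, 5 higher (Pdgfra, Cd44, Ly6a, Prrx1 and Thy1) and 5 lower (Pdgfrb, Eng, Nt5e, Col1a1 and Lepr). Thy1 averaged 167 FPKM in Grx2-/- libraries and 11.9 FPKM in Grx2+/+ libraries, whereas Lepr, the leptin receptor of marrow stroma, averaged 0.0351 FPKM in Grx2-/- libraries and 3.83 FPKM in Grx2+/+ libraries. Levels are given in FPKM, reads scaled to gene length and library depth. Markers of other cells differed with the genotype too. All 8 neutrophil markers were lower, with summed levels of 4.38 to 6.79 FPKM in Grx2-/- libraries and 917 to 2660 FPKM in Grx2+/+ libraries. S100a8 averaged 1.05 FPKM in Grx2-/- libraries and 620 FPKM in Grx2+/+ libraries. In that order S100a9 averaged 0.586 and 575 FPKM, and Ngp 0.0903 and 266 FPKM. Of 7 endothelial markers 5 were tested and all of these were lower, with sums of 12.6 to 12.9 FPKM in Grx2-/- libraries and 30.5 to 36.3 FPKM in Grx2+/+ libraries. Most of the Grx2-/- sum was Eng, which is also on the stromal list, at 11.8 FPKM in Grx2-/- libraries and 15.1 FPKM in Grx2+/+ libraries, while Cdh5 averaged 0.0539 FPKM in Grx2-/- libraries and 5.46 FPKM in Grx2+/+ libraries. Of the untested endothelial markers, Tie1 was at 0 in Grx2-/- libraries and Tek was at 0.555 to 0.647 FPKM in Grx2-/- libraries, above the 0.252 to 0.284 FPKM of Grx2+/+ libraries. For macrophages 7 of 8 markers were higher and 1, C1qa, did not pass. The 8 summed to 2380 to 3240 FPKM in Grx2-/- libraries and 1460 to 1580 FPKM in Grx2+/+ libraries. Most of each sum was Lyz2, which averaged 2090 FPKM in Grx2-/- libraries and 1190 FPKM in Grx2+/+ libraries. Adgre1 averaged 122 FPKM in Grx2-/- libraries and 24.7 FPKM in Grx2+/+ libraries. In that order Csf1r averaged 129 and 31.5 FPKM, Cd68 295 and 99.8 FPKM, and C1qa 40.2 and 48.1 FPKM. Of 8 osteoblast markers, which include Col1a1 of the stromal list, 6 were tested and were lower. The 8 summed to 2620 to 3030 FPKM in Grx2-/- libraries and 4970 to 5340 FPKM in Grx2+/+ libraries. Most of each sum was Col1a1, which averaged 2160 FPKM in Grx2-/- libraries and 3760 FPKM in Grx2+/+ libraries. Alpl averaged 3.66 FPKM in Grx2-/- libraries and 106 FPKM in Grx2+/+ libraries. In that order Sp7 averaged 2.61 and 38.1 FPKM, and Ibsp 0.487 and 107 FPKM. The untested Bglap and Dmp1 overlapped between genotypes. B cell, red cell and T cell marker lists each summed to 1.41 FPKM or less in every library. Lepr of the stromal list and Ibsp of the osteoblast list averaged under 1 FPKM in Grx2-/- libraries. So did S100a9, Ngp, Ltf, Camp, Mpo and Elane among neutrophil markers, and Pecam1, Cdh5, Emcn and Kdr among endothelial markers. All of these reached the filter, a mean of at least 1 FPKM over the 6 libraries, only through Grx2+/+ libraries. Their lower level was thus built into their inclusion. These marker values accompany every result below, and the part of cell composition in them was not tested. In such bulk samples fewer cells of a type and less RNA per cell cannot be told apart.

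The study compared expression profiles of the 2 genotypes. In Grx2-/- libraries Trp53 itself was higher by 10.6%, while its targets ranged from Ccng1, a cyclin that recruits a phosphatase to Mdm2, at 0.837 times the Grx2+/+ mean, to Perp, a membrane protein of cell death and of desmosomes, at 31.9 times. Rprm, an inducer of arrest before mitosis, stood at 10.9 times and Sesn1, an inhibitor of mTORC1 signalling, at 1.85 times the Grx2+/+ mean. Phlda3 and Btg2 were higher by 41.2% and 29.8%. The remaining targets, Aen, Mdm2 and Zmat3, were higher by 21.6%, 23.1% and 11.4%.

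All 10 genes passed the filter of a mean of at least 1 FPKM and all 10 passed the test, 9 higher and 1 lower (limma, adjusted p under 0.05). Perp and Rprm passed the filter only through the Grx2-/- libraries, so their difference was built into their inclusion. Of 11083 genes tested, 67.4% passed, 42.7% higher and 24.6% lower, so passing by itself sets these genes little apart. Their median log2 fold change was 0.32, against 0.09 over all tested genes, a difference that was not tested. Perp and Rprm are part of this median and of the 9 that were higher, so neither figure is free of the filter. The groups did not overlap for 9 of the 10 genes, 8 higher, with Perp and Rprm among these, and 1 lower. Of all tested genes 73.1% had groups that did not overlap, 45.7% higher and 27.4% lower. Scaling between libraries bore on the small differences. With median-of-ratios scaling, whose factors were 1.03 to 1.04 in Grx2-/- libraries and 0.958 to 0.982 in Grx2+/+ libraries, 6 genes were higher, 1 was lower and 3 did not pass, and quantile normalization gave the same counts. Among all calls the share that was higher was 63.5% as deposited, 50.1% with median-of-ratios scaling and 46.4% with quantile normalization. The median of all tested genes shifted by -0.09 under the first and by -0.11 under the second.

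**Figure D1:**
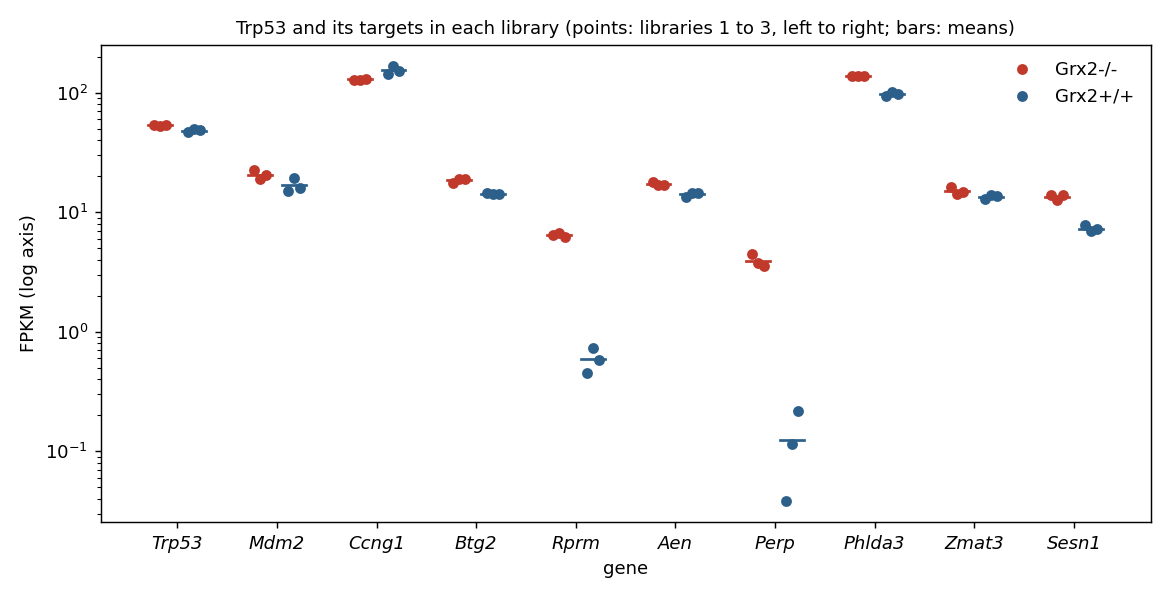
Level of Trp53 and 9 p53 targets in each of 6 libraries, in FPKM on a log axis, with Grx2-/- points left of Grx2+/+ points, replicates 1 to 3 from left to right and horizontal bars at the means of 3. The gap between genotypes is widest for Perp and Rprm, the points of Mdm2 overlap, and only Ccng1 has its Grx2-/- points below its Grx2+/+ points.

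Trp53 was among the more abundant transcripts of its pathway. It had 53.9, 52.5 and 53.2 FPKM in Grx2-/- libraries, against 46.8, 49.3 and 48.3 FPKM in Grx2+/+ libraries. Every Grx2-/- value lay above every Grx2+/+ value, by a narrow margin. The log2 fold change was 0.14 ± 0.033 (SE, 95% interval 0.07 to 0.22, adjusted p = 0.00525), on the log2(FPKM + 1) scale used for all fold changes here, which understates the change of low genes. As many as 68% of all tested genes had a log2 fold change at least that large in either direction. The call of Trp53 did not hold with median-of-ratios scaling (0.04, adjusted p = 0.24) or quantile normalization (0.03, adjusted p = 0.395), and its adjusted p ran from 3.99e-05 to 0.395 over 16 alternatives. The profiles nearest to that of Trp53 among all tested genes, by root mean square distance of centred log2 values over the 6 libraries, were those of Atn1 (0.0092), Aldh16a1 (0.0101) and Brd2 (0.0127). Atn1, for instance, had 29.2, 28.4 and 28.9 FPKM in Grx2-/- libraries and 24.9, 26.6 and 25.8 FPKM in Grx2+/+ libraries.

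Mdm2, the ubiquitin ligase that closes the p53 feedback loop, had 22.7, 18.9 and 20.3 FPKM in Grx2-/- libraries, against 15.0, 19.4 and 15.9 FPKM in Grx2+/+ libraries. The groups overlapped, since Grx2+/+ replicate 2 exceeded Grx2-/- replicate 2. Its log2 fold change of 0.29 ± 0.098 passed narrowly (95% interval 0.06 to 0.52, limma adjusted p = 0.0303). Leaving out Grx2-/- replicate 1 or 3 gave adjusted p = 0.0862 and 0.0675, and leaving out Grx2+/+ replicate 1 or 3 gave 0.0983 and 0.0968, within a range of 9.16e-05 to 0.179 over all alternatives. Ccng1, cyclin G1, moved the other way. Its levels were 128, 128 and 131 FPKM in Grx2-/- libraries and 144, 166 and 152 FPKM in Grx2+/+ libraries. No value of one genotype reached those of the other, and the Grx2+/+ libraries spread more widely, with a coefficient of variation of 7.28%, than the Grx2-/- libraries (1.22%). Ccng1 fell by 0.25 ± 0.051 on the log2 scale (adjusted p = 0.00265) and stayed lower and past the threshold under all 16 alternatives.

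The 2 targets that halt proliferation were both higher. Btg2, an antiproliferative protein that binds the CCR4-NOT deadenylase, had 17.5, 19.1 and 18.9 FPKM in Grx2-/- libraries and 14.4, 14.2 and 14.1 FPKM in Grx2+/+ libraries. Grx2-/- replicate 1 was the lowest of its group and still clear of the Grx2+/+ libraries (0.35 ± 0.044, adjusted p = 0.000175). Rprm, reprimo, had 6.39, 6.67 and 6.21 FPKM in Grx2-/- libraries, against 0.453, 0.731 and 0.579 FPKM in Grx2+/+ libraries. In reads these were 390, 401 and 372 in Grx2-/- libraries and 27, 44 and 35 in Grx2+/+ libraries. The gap far exceeded the spread within either genotype. Scaled for depth, the summed reads had a ratio of 10.9 (8.95 to 13.5, exact 95% interval for counting error alone). Its log2 fold change was 2.23 ± 0.074 (adjusted p = 1.22e-07), a size that 1.89% of tested genes equalled or exceeded. Since Rprm reached the filter only through the Grx2-/- libraries, this adjusted p and rank are no separate support for a difference. With no filter its limma adjusted p was 1.76e-05.

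Targets linked to cell death divided into a very large and a small difference. Perp had 4.46, 3.73 and 3.58 FPKM in Grx2-/- libraries and 0.0387, 0.115 and 0.216 FPKM in Grx2+/+ libraries. These correspond to 354, 292 and 279 reads in Grx2-/- libraries and to 3, 9 and 17 reads in Grx2+/+ libraries, so the gene was close to undetected in cells with Grx2. Summed over libraries and scaled for depth, reads were 31.8 times as many in Grx2-/- cells (22 to 47.7, exact 95% interval for counting error alone). On the log2 scale the difference was 2.13 ± 0.09 (adjusted p = 3.87e-07), and with a pseudocount of 0.1 or voom on the recovered reads, which compress low values less, it was larger, up to 5.2. Perp also reached the filter only through the Grx2-/- libraries, so its adjusted p is no separate support for a difference. With no filter its limma adjusted p was 3.5e-05. Perp is best known from stratified epithelia, where the p53 relative p63 controls it. Trp63, which encodes p63, was under the filter, at 0.413, 0.314 and 0.304 FPKM in Grx2-/- libraries and 0.0853, 0.165 and 0.063 FPKM in Grx2+/+ libraries. Epithelial markers, a list of 8 added after the values of Perp were seen, were all under the filter and summed to 0.237 to 0.38 FPKM in Grx2-/- libraries and 0.235 to 0.351 FPKM in Grx2+/+ libraries. Within the list Pkp1, a desmosomal protein, was higher without overlap, at 0.225, 0.161 and 0.225 FPKM in Grx2-/- libraries and 0.0577, 0.0312 and 0.0465 FPKM in Grx2+/+ libraries. Epcam and Krt14 were lower without overlap, but at too few reads to give that separation weight, and the other 5 overlapped. Epcam had 1, 0 and 0 reads in Grx2-/- libraries and 1, 3 and 1 reads in Grx2+/+ libraries. Krt14 had 0, 0 and 1 reads in Grx2-/- libraries and 7, 2 and 2 reads in Grx2+/+ libraries. The part of epithelial cells in the level of Perp was not tested. Aen, a p53-induced nuclease of apoptosis, had 17.8, 16.8 and 16.8 FPKM in Grx2-/- libraries, against 13.3, 14.6 and 14.4 FPKM in Grx2+/+ libraries. Its groups were separate (0.27 ± 0.047, adjusted p = 0.00138) and its call held under all 16 alternatives, the weakest with adjusted p = 0.0372.

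The remaining 3 targets act on growth signalling or RNA. Phlda3, a pleckstrin homology domain protein that competes with Akt for membrane lipids, was the most abundant of the 10 genes in Grx2-/- libraries, at 138, 137 and 138 FPKM, against 93.5, 101 and 97.3 FPKM in Grx2+/+ libraries. The Grx2-/- replicates were nearly identical, with a coefficient of variation of 0.632%. Its log2 fold change of 0.49 ± 0.036 had adjusted p = 8.02e-06. Sesn1, sestrin 1, had 14.0, 12.6 and 13.9 FPKM in Grx2-/- libraries and 7.76, 6.93 and 7.18 FPKM in Grx2+/+ libraries. The lowest Grx2-/- library was well above the highest Grx2+/+ library (0.81 ± 0.059, adjusted p = 8.46e-06). Zmat3, a zinc finger protein that binds RNA, had 16.1, 14.1 and 14.7 FPKM in Grx2-/- libraries and 12.8, 13.9 and 13.6 FPKM in Grx2+/+ libraries. Replicate 2 of each genotype nearly met, and the test passed by the smallest margin of the 10 genes (0.14 ± 0.056, 95% interval 0.02 to 0.27, limma adjusted p = 0.049). That call failed without Grx2-/- replicate 1 or 3 (adjusted p = 0.115 and 0.0851) and without Grx2+/+ replicate 1 or 3 (0.153 and 0.0969), with a range of 0.00266 to 0.957 over 16 alternatives, and with the replicate number as a block it had adjusted p = 0.0732.

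**Figure D2:**
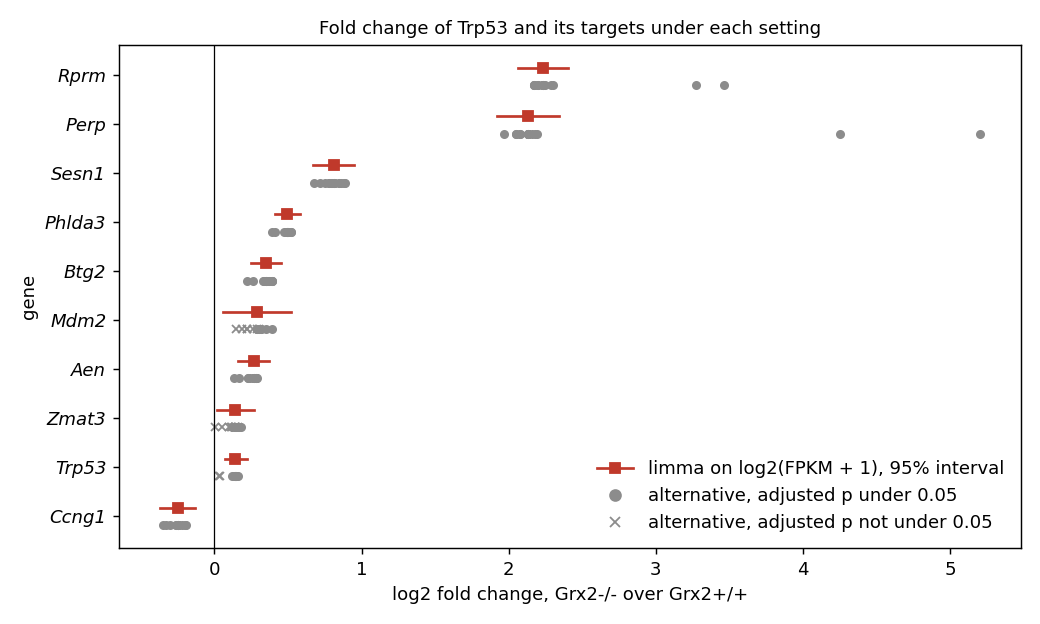
Log2 fold change of the 10 genes, Grx2-/- over Grx2+/+, as red squares with 95% intervals from limma, and in grey the values under each alternative, 16 in all (15 for Perp and Rprm), as circles where adjusted p was under 0.05 and as crosses where it was not. The crosses belong to Mdm2, Zmat3 and Trp53, and the 2 grey points far to the right for Perp and for Rprm come from the pseudocount of 0.1 and from voom.

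Across the 10 genes, levels covered a wide range and kept much the same order in both genotypes. In Grx2-/- libraries Phlda3 stood first and Ccng1 second, whereas in Grx2+/+ libraries Ccng1 stood first and Phlda3 second. Trp53 followed in both, then Mdm2, Btg2, Aen, Zmat3, Sesn1, Rprm and Perp. Ranges overlapped between neighbours for Mdm2 with Btg2 and Btg2 with Aen in Grx2-/- libraries, and for Btg2 with Aen and Aen with Zmat3 in Grx2+/+ libraries, so those neighbours did not differ beyond their spread. Some libraries of a genotype were high or low for most of the 10 genes. Grx2-/- replicate 1 was the highest of its group for 7 genes and Grx2-/- replicate 2 the lowest for 7, while Grx2+/+ replicate 2 was the highest for 7 and Grx2+/+ replicate 1 the lowest for 8. Grx2-/- replicate 1 and Grx2+/+ replicate 2 were also the libraries furthest from their group means over all tested genes. Without both, 8 of the 10 genes were higher, 1 was lower, and Zmat3 did not pass (adjusted p = 0.0549).

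A list of 40 other p53 targets moved in both directions. Of 38 tested, 17 rose (44.7%), 12 fell and 9 did not pass, with a median log2 fold change of 0.14, and 2 were under the filter, so on the deposited scale the share that rose was near the 42.7% of all tested genes. The 2 under the filter, Tgfa and Ddb2, were both higher in Grx2-/- libraries without overlap. Tgfa averaged 0.861 FPKM in Grx2-/- libraries and 0.164 FPKM in Grx2+/+ libraries, and Ddb2 averaged 1.09 and 0.76 FPKM in that order. Median-of-ratios scaling gave 17 higher, 15 lower and a median of 0.05, beside 3688 higher and 3674 lower of 11076 genes tested. With quantile normalization 17 rose and 16 fell, with a median of 0.03, beside 3413 higher and 3945 lower of 11083. Cdkn1a, the cyclin-dependent kinase inhibitor p21 and the classical arrest gene of p53, had 268, 261 and 264 FPKM in Grx2-/- libraries, against 180, 208 and 191 FPKM in Grx2+/+ libraries (0.45 ± 0.051, adjusted p = 9.44e-05). All 3 Grx2-/- values lay above all 3 Grx2+/+ values. The death receptor gene Fas had 10.2, 7.76 and 8.56 FPKM in Grx2-/- libraries and 2.04, 2.63 and 2.08 FPKM in Grx2+/+ libraries (1.60 ± 0.11, adjusted p = 4.47e-06). Cd82, a tetraspanin, averaged 28.1 ± 0.804 FPKM in Grx2-/- libraries and 8.73 ± 0.813 FPKM in Grx2+/+ libraries (SD, n = 3 each). Ephx1, an epoxide hydrolase, and Sulf2, a heparan sulfate sulfatase, both had log2 fold changes of 0.94. Among those that fell, Pmaip1, which encodes the BH3-only death protein Noxa, had 4.8, 4.65 and 5.13 FPKM in Grx2-/- libraries and 9, 9.03 and 8.94 FPKM in Grx2+/+ libraries (-0.77 ± 0.048, adjusted p = 3.29e-06). Fdxr, the mitochondrial ferredoxin reductase, fell to 3.56 FPKM in Grx2-/- libraries, against 7.06 FPKM in Grx2+/+ libraries. Named after their values were seen, Gadd45a, a stress sensor, had the largest fall of the list (-1.02 ± 0.11), Bbc3, the gene of PUMA, was at -0.23 (adjusted p = 0.0201), and Bax, the pore-forming death effector, averaged 131 FPKM in Grx2-/- libraries and 136 FPKM in Grx2+/+ libraries (95% interval of the log2 difference -0.14 to 0.02). The call of Bbc3, whose values were 2.6, 2.94 and 2.34 FPKM in Grx2-/- libraries and 3.21, 3.38 and 3.16 FPKM in Grx2+/+ libraries, failed with no filter and without Grx2-/- replicate 3 or Grx2+/+ replicate 2 (adjusted p = 0.0556, 0.0751 and 0.0597), and Bax passed as lower with median-of-ratios scaling (-0.16) and quantile normalization (-0.13).

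**Figure D3:**
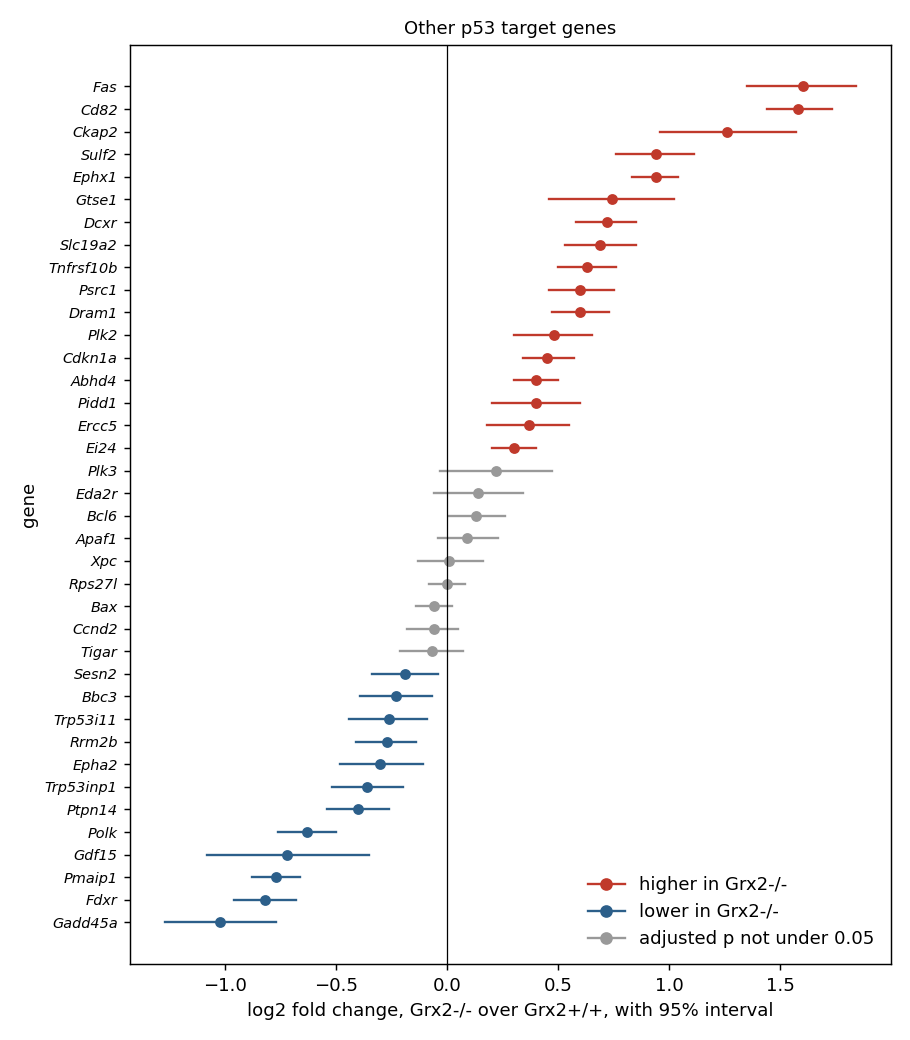
Log2 fold change with 95% interval of 38 other p53 targets, Grx2-/- over Grx2+/+, in red where higher, in blue where lower and in grey where adjusted p was not under 0.05. Fas and Cd82 lie at the upper end, at 1.60 and 1.58, and Gadd45a at the lower end, at -1.02.

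Regulators and partners of p53 divided evenly as deposited. Of 29 tested, 8 rose, 9 fell and 12 did not pass, 58.6% passing against 67.4% of all tested genes. Those that rose made up 27.6% of the list, whereas 42.7% of all tested genes were higher and 24.6% lower. The split depended on scaling: 4 rose and 12 fell with median-of-ratios scaling, and 3 rose and 14 fell with quantile normalization. Calls over all tested genes moved as well, from 63.5% higher as deposited to 50.1% and 46.4% under these scalings, in that order. Whether the list departs from these shares was not tested. Without Grx2+/+ replicate 1 the split was 5 that rose and 8 that fell. The 6 genes with the smallest p all fell. Mdm4, a relative of Mdm2 that masks the activating domain of p53, had 6.74, 6.24 and 6.59 FPKM in Grx2-/- libraries and 11.5, 11.6 and 11.2 FPKM in Grx2+/+ libraries (-0.73 ± 0.045, adjusted p = 3.15e-06). Its groups lay far apart, in the opposite direction to Mdm2. Setd7, a lysine methyltransferase, was at -0.60 and Hipk2, a kinase of p53, at -0.49. Ppp1r13l and Trp53bp2, which encode members of the ASPP family of p53 binders, were at -0.53 and -0.36. Ppp1r13b, another ASPP gene of the list named after its value was seen, was higher, at 0.19 (limma adjusted p = 0.0339). Rpl5, a ribosomal protein that binds and inhibits Mdm2, averaged 343 ± 4.86 FPKM in Grx2-/- libraries and 447 ± 4.4 FPKM in Grx2+/+ libraries (SD, n = 3 each). Its partner Rpl11, named after its value was seen, averaged 352 FPKM in Grx2-/- libraries and 341 FPKM in Grx2+/+ libraries and did not pass (95% interval -0.04 to 0.13).

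Paralogs of the targets moved in both directions. Of 22 listed relatives, which include Mdm4 and Sesn2 from the lists above, 15 were tested, and 3 rose, 9 fell and 3 did not pass, with a median log2 fold change of -0.25. Over all tested genes 42.7% were higher and 24.6% lower, with a median of 0.09, and the difference from these shares was not tested. Sesn2 and Sesn3 had -0.19 ± 0.065 and -0.25 ± 0.088, beside the higher Sesn1, although both calls failed with no filter and without Grx2-/- replicate 2 or 3 or Grx2+/+ replicate 1 or 3, with adjusted p between 0.0674 and 0.113 in those fits. Btg1 and Btg3 fell by 0.55 and 0.64, beside a higher Btg2. Phlda1 was at -0.39 beside Phlda3, and Isg20, an interferon-induced nuclease, at -0.67 beside Aen, while Isg20l2 did not pass (0.02). Isg20 averaged 0.864 FPKM in Grx2-/- libraries and 1.97 FPKM in Grx2+/+ libraries, and reached the filter only through Grx2+/+ libraries. Isg20l2 passed as lower with quantile normalization (-0.12, adjusted p = 0.0441) and as higher with array weights (0.09, adjusted p = 0.0086), and its adjusted p reached 0.967 over the 16 alternatives. Ccng2 fell with Ccng1 and by more, to 8.65 ± 0.477 FPKM in Grx2-/- libraries, against 16.2 ± 0.885 FPKM in Grx2+/+ libraries (SD, n = 3 each). Relatives of Perp differed from each other. Pmp22, a myelin membrane protein, had 103, 97.1 and 102 FPKM in Grx2-/- libraries and 19.8, 24.0 and 20.9 FPKM in Grx2+/+ libraries (2.17 ± 0.065), and Tmem47 fell by 1.11 on the log2 scale. Zmat2 (0.23) and Tob1 (0.21) were the other relatives that rose. Tob1 lost its call with either scaling and Zmat2 with quantile normalization, and Tob1 also without Grx2-/- replicate 3 (adjusted p = 0.051) or Grx2+/+ replicate 3 (0.0535). Zmat5 and Tob2 had 0.07 each and did not pass.

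**Figure D4:**
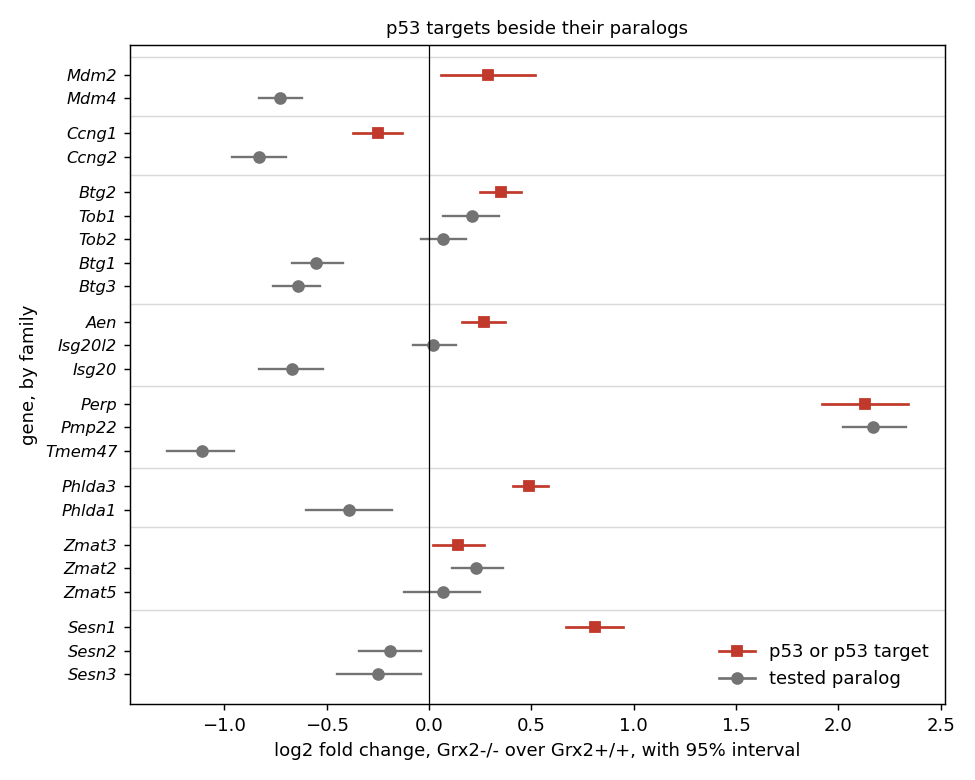
Log2 fold change with 95% interval, Grx2-/- over Grx2+/+, of p53 targets as red squares, each above its tested paralogs as grey circles, grouped by family. Mdm2, Btg2, Aen, Phlda3, Sesn1 and Perp lie to the right of 0 with at least 1 paralog to the left. In the family of Perp, Pmp22 lies with it near 2 and Tmem47 lies at -1.11. Ccng1 and Ccng2 both lie to the left.

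Genes that p53 represses through p21 and the DREAM complex, which shuts off cell cycle promoters in resting cells, were higher in Grx2-/- libraries. Of 24 tested, 17 rose, 0 fell and 7 did not pass, 70.8% rising against 42.7% of all tested genes, with a median log2 fold change of 0.53. The list was chosen with earlier results of these data known, and its difference from all tested genes was not tested. At an unadjusted p under 0.05 the count that fell was also 0, as it was with voom. Mcm5, a subunit of the replicative helicase, had 43.1, 50.8 and 50.4 FPKM in Grx2-/- libraries and 18.8, 21.6 and 19.2 FPKM in Grx2+/+ libraries (1.23 ± 0.076, adjusted p = 3e-06). All 3 Grx2-/- values lay well above all 3 Grx2+/+ values. Aurkb and Cdk1, kinases of mitosis, had log2 fold changes of 0.91 and 0.77, while Prc1, a spindle protein, was at 0.69 and Ccna2, cyclin A2, at 0.65. Grx2-/- replicate 1 was the lowest of its group for each of these 5 genes. Without it, all 24 rose, and over all 16 alternatives the count that rose ran from 15 to 24. It was 15 with either scaling, with no filter, and without Grx2-/- replicate 2 or 3 or Grx2+/+ replicate 1 or 3. Over all tested genes, 3688 of 11076 were higher with median-of-ratios scaling and 3413 of 11083 with quantile normalization. Cdkn1a, through which p53 is known to repress them, was higher in the same libraries. What part p53, p21 or other cell types have in the levels of these genes was not tested.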

How the data were processed

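Messenger RNA of 3 Grx2-/- and 3 Grx2+/+ libraries of mouse bone marrow mesenchymal stem cells was measured; groups came from the genotype in the labels. RNA extraction used TRIzol and library preparation a VAHTS kit, per the labels' protocols. The authors deposited FPKM values per gene, made with HISAT2, HTSeq and R 3.2.0 on GRCm39, per the submitters' processing notes; for other versions, annotation, filters and strand the entry is "not given in the sources used here". FPKM does not correct for composition shifts between libraries, and without a known strand setting antisense reads cannot be told apart. In GENCODE M21 (GRCm38) no exon of the 10 genes overlaps an exon of another gene.

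Reads were recovered as whole multiples of each gene's step, for 22982 of 22984 genes (99.99%) within 1e-06 reads plus a relative 1e-09. Genes with mean FPKM of at least 1 were tested on log2(FPKM + 1) by limma 3.58.1 in R 4.3.3 (trend, two-sided, Benjamini-Hochberg over 11083 genes, threshold 0.05), after a test on simulated data. The 10 genes and all lists were chosen with earlier results of these data known. Named from lists were the 6 smallest p (3 for markers), every tested paralog, Cdkn1a and the 3 profiles nearest to Trp53; 1 gene is not reported here. There were 15 alternatives and 1 added after the data were seen; calls were not based on count tests, since the table holds FPKM. Promoter windows are on GRCm38.p6, another build than the authors', and no coordinates were converted. Figures were drawn with matplotlib 3.10.9.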

Additional observations from a re-analysis of the deposited data

How the results depend on the processing

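Perp, Rprm, Sesn1, Phlda3, Btg2, Aen and Ccng1 kept their direction and call under each alternative that tested them; the filter of a mean of at least 5 FPKM left out Perp and Rprm. With median-of-ratios scaling the log2 fold changes of Trp53, Mdm2 and Zmat3 were 0.04, 0.19 and 0.05, and with quantile normalization 0.03, 0.15 and 0.004, none passing. With no filter Mdm2 (0.29) and Zmat3 (0.14) did not pass; Zmat3 also failed without trend (0.14) and, chosen after seeing the data, without Grx2-/- replicate 1 and Grx2+/+ replicate 2 (0.12); the cause was not tested. With 1 library left out Mdm2 ran from 0.22 to 0.39 and Zmat3 from 0.1 to 0.18. Same-numbered libraries of the 2 genotypes correlated at 0.11, 0.12 and 0.02 in their deviations from group means, and replicate 3 did not match its own number best, so the numbers were not taken as pairs. With the replicate block Zmat3 (0.14) did not pass, the calls of the other 9 genes were as before, and 4771 genes were higher and 2791 lower. Regulators of p53 had 3 higher and 5 lower with a mean of at least 5 FPKM (fewer genes tested), 4 higher with median-of-ratios scaling, 3 higher and 14 lower with quantile normalization, and 5 to 8 higher with 1 library left out. Paralogs had 1 higher with quantile normalization and 6 with array weights, which ran from 0.214 to 20.6; their median turned to 7e-04 with no filter. Directions reversed for Zmat5 (-0.02 and -0.05), Tob2 (-0.02 and -0.05), Isg20l2 (-0.07 and -0.12) and Rpl11 (-0.06 and -0.01) with median-of-ratios scaling and quantile normalization, for Isg20l2 without Grx2-/- replicate 3 (-0.003) and for Zmat5 without Grx2+/+ replicate 3 (-0.03); leaving out 1 library, Isg20l2 reached 0.06 and Zmat5 0.13. Depth limits mainly Perp, with 3 to 17 reads in Grx2+/+ libraries.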
